A study of Homo sapiens with 10 samples.

Results

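Acetylation of histone H3 at lysine 27 (H3K27ac) was followed at 9 genes of the bone morphogenetic protein (BMP) pathway and the inhibitor of DNA binding (ID) family in H1975 cells, an established human lung adenocarcinoma line with mutant EGFR. The genes were the ligands BMP2 and BMP4, the receptor BMPR2, the SMAD proteins SMAD6 and SMAD9, and ID1, ID2, ID3 and ID4. Every region that the deposited annotation assigned to 1 of these symbols was taken, which gave 51 of 67387 annotated regions and of 169637 regions in all. SMAD9 had no assigned region. Of the 51 regions, 20 lay within 1 kb of an annotated transcript start and are called promoter regions, and the other 31 are called distal, although some of these lay only 1 to 3 kb from a start. Those were ID1 -2.5 kb, ID2 3.1 kb, ID3 -2.7 and 3.2 kb, ID4 -1.8 kb, BMP2 1.8 and 2.7 kb and SMAD6 -1.4 kb. Each kb value after a gene name is the distance of the region centre from the gene start.

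Chromatin immunoprecipitation and sequencing (ChIP-seq) libraries came from 3 conditions with 3 biological replicates each. DMSO control cells were kept without drug over 21 days and then in DMSO for 3 days. Osimertinib drug-tolerant persisters (osimertinib DTP) were exposed to osimertinib, a third-generation EGFR kinase inhibitor, at 500 nM for 24 days. The combination group (osimertinib DTP + AZD5153) had osimertinib at 500 nM for 21 days and then AZD5153, a small-molecule inhibitor, at 150 nM for 3 days. The labels do not say whether osimertinib was continued over the days with AZD5153. All libraries are labelled as 1 cell line, although the peak list of persister replicate 3 carries the name H1875. That library correlated with persister replicates 1 and 2 at 0.82 and 0.805 (Spearman, the 157919 regions kept for testing), beside 0.809 between these. Without libraries of another line to set beside them, these values cannot say which line it was. In addition, 1 pooled input library, made without antibody, served as background. The comparisons ask how acetylation at these genes differed between persisters and control cells, and whether AZD5153 altered it in persisters.

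BMP ligands are secreted dimers that join type I and type II receptors on the cell surface. The receptors phosphorylate SMAD1, SMAD5 and SMAD9, which enter the nucleus with SMAD4 and bind regulatory DNA. ID genes are direct targets in many cell types, and the proteins they encode lack a DNA-binding region and hold E proteins away from DNA. SMAD6 is both a target and an inhibitor of the pathway. H3K27ac marks active promoters and enhancers.

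The promoter windows of ID1, ID4 and SMAD6 are shown because the first lies near a region called lower in persisters, the second next to regions called higher, and the third holds a palindromic SMAD-binding sequence. They are RefSeq sequences of GRCh38.p14, each on the plus strand, from 250 bases before to 50 bases after the gene start. Capitals mark TATAAA, the core of the TATA box, on either strand in ID1 and ID4, and GTCTAGAC in SMAD6.
ID1, chr20:31605039-31605338: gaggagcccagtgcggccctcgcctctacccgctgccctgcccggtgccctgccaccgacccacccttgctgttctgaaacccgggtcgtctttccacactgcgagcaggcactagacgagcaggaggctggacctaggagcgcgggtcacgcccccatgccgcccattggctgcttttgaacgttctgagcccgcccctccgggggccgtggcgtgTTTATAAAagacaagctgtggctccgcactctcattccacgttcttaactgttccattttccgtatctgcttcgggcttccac
ID4, chr6:19837120-19837419: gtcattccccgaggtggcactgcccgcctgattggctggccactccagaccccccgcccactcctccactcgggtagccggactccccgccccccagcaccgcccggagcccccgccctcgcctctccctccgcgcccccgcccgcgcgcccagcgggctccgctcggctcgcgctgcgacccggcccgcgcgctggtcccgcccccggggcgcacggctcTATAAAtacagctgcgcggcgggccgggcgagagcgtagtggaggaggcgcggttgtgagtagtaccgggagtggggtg
SMAD6, chr15:66701986-66702285: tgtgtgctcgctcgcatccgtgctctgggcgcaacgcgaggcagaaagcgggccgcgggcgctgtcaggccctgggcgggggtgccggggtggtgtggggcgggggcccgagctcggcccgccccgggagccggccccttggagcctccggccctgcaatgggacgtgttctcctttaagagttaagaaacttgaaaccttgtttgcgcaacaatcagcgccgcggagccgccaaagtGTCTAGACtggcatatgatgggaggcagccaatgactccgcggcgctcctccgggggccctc

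RefSeq windows were matched for 8 of the 9 genes, and gave 10 windows, 3 of them for BMP4. The windows of ID1 and SMAD6 each overlapped 2 promoter regions and that of ID4 overlapped 1, whereas those of ID2 and ID3 overlapped none. TATAAA matched the ID1 window at positions -31 and -33, on opposite strands and overlapping, and the ID4 window at -29, and was in 11.5% of 35116 windows. GTCTAGAC began at position -12 of the SMAD6 window and was in 0.202% of windows. Both strands were searched. GGCGCC, a GC-rich SMAD-binding sequence, was in 19.2% of windows and in those of BMPR2 and of 1 BMP4 start. The AP-1 sequence TGANTCA was in 7.71% of windows and the CREB sequence TGACGTCA in 1.85%, and in none of the 10. GGCGCC and GTCT 5 bases apart, the spacing known from the ID1 enhancer, was in 0.103% of windows and in none of the 10. No sequence outside the windows was searched, so elements farther from a start, such as enhancers, would be missed. Positions count from the start, and a match is only a match of letters.

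Total counts ranged from 6263443 to 10463351 per H3K27ac library, and the input had 1870885. Levels are given as CPM, the counts divided by library size on a common scale, with library sizes adjusted by the trimmed mean of M values (TMM), and every region is 502 bp long, so levels of regions can be set side by side. Every pair of replicates without combination replicate 3 had a Spearman correlation of 0.805 to 0.893 over the 157919 regions kept for testing. Combination replicate 3 stood apart, at 0.445 and 0.367 with its fellow replicates. It held 66.7% of its annotated counts in promoter regions, followed by persister replicate 2 with 59.82%, while the other libraries held 40.34% to 45.94%. Results are therefore given with and without combination replicate 3, and the part of the high promoter share in the promoter values of these libraries was not tested. The 6 epithelial marker genes had promoter signal in every library, and the leukocyte markers PTPRC and CD3E had no region. Of the 5 lung lineage markers, FOXA1 had no region. Of the 12 epithelial sums, combination cells were called lower than DMSO at CDH1 distal (-1.59 on the log2 scale, adjusted p of 0.0142) and higher at KRT18 distal (1.22, 0.0193), and of the 7 lung lineage sums lower at SFTPB (-1.93, 0.0258). In persisters, edgeR without combination replicate 3 called 1 epithelial sum higher and 3 lower, and 1 lung lineage sum higher and 2 lower, none of which passed with that library. In combination cells against DMSO that fit called 1 epithelial sum higher and 3 lower. It called 0 lung lineage sums higher and 3 lower, among them FOXA2 distal (-3.77, adjusted p of 0.000498) and FOXA2 promoter (-3.02, 0.00521). The 3 sums of the endothelial genes CDH5 and PECAM1 were not called. Of the 3 fibroblast sums, both of PDGFRB were higher in persisters (1.82 and 2.25) and in combination cells (2.69 and 2.91). COL1A1 was not called in the main fit. Without combination replicate 3 edgeR called COL1A1 higher in persisters (1.71, adjusted p of 0.0278) but not in combination cells (0.503). The part of these in the results was not tested. Fewer cells with the mark and less of it per cell cannot be told apart in bulk chromatin.

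All 51 regions passed the filter on low counts. Persisters differed from DMSO cells at 4 of the 51 regions in edgeR's quasi-likelihood test at a Benjamini-Hochberg adjusted p under 0.05, 3 higher and 1 lower. Over all 157919 regions tested, 5.58% were called higher and 5.13% lower, against 5.88% and 1.96% of the 51, so the share of members called higher was near that of regions at large. Without combination replicate 3, which is in neither group and enters this comparison through the shared fit, 8 were higher and 6 lower, or 15.7% and 11.8%, against 14.2% and 12.7% of all regions. With the replicate number as a block, 3 were higher and 2 lower. The log2 fold changes had a median of 0.80 over the 20 promoter regions and 0.23 over the 31 distal ones, beside 0.35 and -0.04 over all annotated promoter and distal regions. The persister and DMSO libraries did not overlap at 8 regions that were higher and 10 that were lower, 15.7% and 19.6% of the members, beside 20.2% and 18.9% of all regions.

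Combination cells differed from DMSO cells at 15 regions, 12 higher and 3 lower. These were 23.5% and 5.88% of the members, beside 9.05% and 9.01% of all regions. Without combination replicate 3 the counts were 16 and 4, or 31.4% and 7.84%, beside 18.4% and 17.3% of all regions. The median log2 fold change was 1.34 over promoter regions and 1.01 over distal ones, beside 0.42 and 0.03 over all annotated regions of each class. Without combination replicate 3 the promoter median was 0.45 and the distal one 0.92, beside -0.0045 and 0.12. The libraries did not overlap at 18 higher and 5 lower regions, 35.3% and 9.8% of the members, beside 14.4% and 19.0% of all regions. This comparison and that of persisters share their DMSO libraries.

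Combination cells and persisters differed at none of the 51 regions in edgeR, where the share of all regions called was 0.0% in each direction, and 7 of the 51 had an unadjusted p under 0.05. DESeq2 also called none, beside 0.0585% of all regions, whereas limma voom with quality weights, which gave combination replicate 3 a weight of 0.144, called 7 higher, beside 3.17% of all regions. Without combination replicate 3 edgeR again called none of the 51, and 0.0637% of all regions were called higher and 0.0587% lower. The log2 fold changes were positive at 44 regions and negative at 7, with a median of 0.67, and the median was 0.25 without combination replicate 3, when 34 were positive, 17 were negative and 15 had an unadjusted p under 0.05. Over all regions these medians were 0.06 and -0.17. The promoter median turned from 0.65 (17 positive, 3 negative) to -0.087 (9 positive, 11 negative) without combination replicate 3, beside 0.08 and -0.34 over all promoter regions, and the distal median went from 0.73 to 0.57, beside 0.06 and 0.19. The libraries of both groups did not overlap at 8 higher and 2 lower regions, 15.7% and 3.92% of the members, beside 2.83% and 5.4% of all regions.

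**Figure D1:**
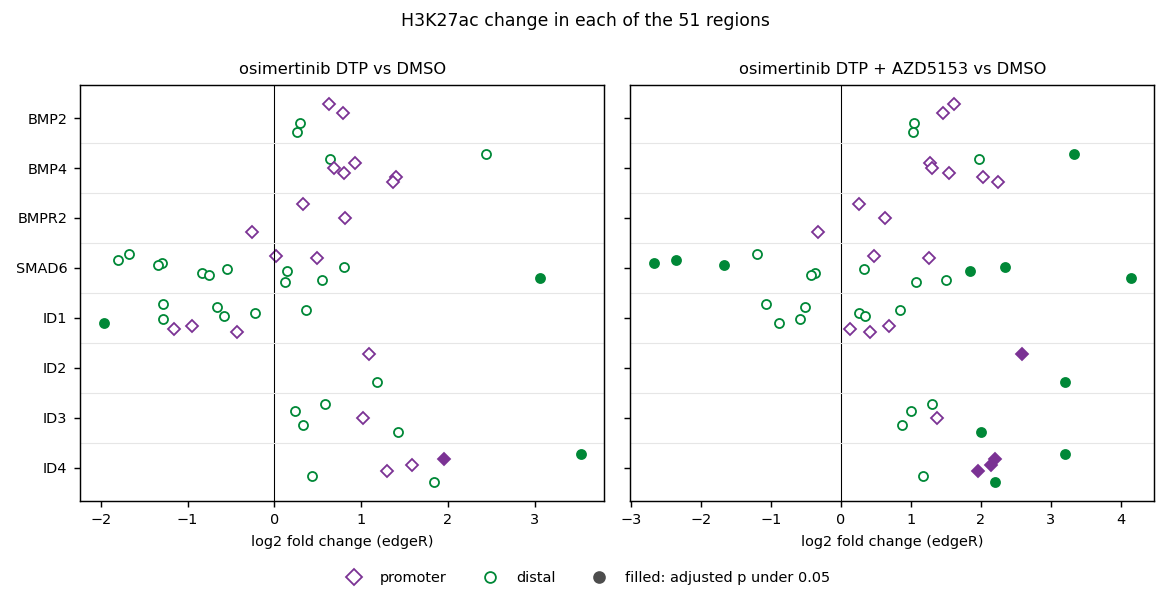
Log2 fold change from edgeR (horizontal axis) at each of the 51 regions, grouped by gene, for persisters against DMSO (left) and the combination against DMSO (right). Diamonds are promoter regions, circles are distal regions and filled symbols passed at an adjusted p under 0.05: 4 on the left and 15 on the right, among them 5 of the 6 ID4 regions on the right.

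Counts were also summed per gene over its promoter regions and over its distal regions. None of the 15 member sums was called between persisters and DMSO cells, where edgeR called 9.57% of all 21677 sums. Of the 15, 3 had an unadjusted p under 0.05, and DESeq2 also called none, while limma voom with quality weights called 4 higher and 2 lower and 35.5% of all sums. Between combination and DMSO cells 4 were called, all higher, namely the ID2 promoter, ID2 distal, ID4 promoter and BMP4 distal sums, and 14.5% of all sums were called. Between combination cells and persisters edgeR called none of the member sums, 3 of which had an unadjusted p under 0.05, and 0.0% of all sums. For that comparison DESeq2 called 0.0554% of all sums and no member sum, and limma voom with quality weights called 18.4% of all sums and 9 of the 15, each higher.

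Leaving out each of the 9 libraries in turn, 0 of the 4 region calls in persisters and 1 of the 15 in combination cells passed in every fit. For regions at large, without DMSO replicate 2 the regions called in persisters fell to 668 higher and 482 lower, from 8814 and 8107. The libraries without which a call was lost are named with each gene.

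BMP2 and BMP4 encode secreted ligands. BMP2 had 4 regions and none was called. Its highest promoter region, centred 0.6 kb after the gene start (chr20:6768075-6768576), had 16.2, 13.1 and 14 CPM in DMSO replicates 1 to 3, then 19.9, 43.7 and 11.7 CPM in persisters and 23.0, 12.9 and 84.1 CPM in combination cells. The high values came from persister replicate 2 and combination replicate 3, the libraries with the high promoter share, and all groups overlapped. The promoter region at -0.4 kb (chr20:6766995-6767496) was weaker, at 1.81, 2.79 and 1.01 CPM in DMSO cells, 3.25, 3.34 and 2.11 CPM in persisters and 5.31, 4.65 and 7.34 CPM in combination cells. There every combination library lay above every other library. The log2 fold change against DMSO was 1.61 ± 0.58 (SE, n = 3 per group), with an adjusted p of 0.0589 in edgeR, and 0.0386 without combination replicate 3. The distal region with the highest mean level, at 2.7 kb (chr20:6770094-6770595), had 10.2 ± 2.02 CPM in DMSO cells, 12.3 ± 8.02 in persisters and 21.0 ± 12.3 in combination cells (SD, n = 3 each), within the spread. The promoter and distal sums of BMP2 differed from DMSO in combination cells by 1.48 ± 0.63 and 1.04 ± 0.52 on the log2 scale (SE), with adjusted p of 0.138 and 0.216 in edgeR.

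BMP4 had 7 regions, and its DMSO libraries differed widely among themselves. The highest promoter region (chr14:53954570-53955071, 2.1 kb after the gene start and within 1 kb of another annotated start) had 9.43, 2.58 and 1.51 CPM in DMSO cells, 12.8, 18.5 and 4.53 CPM in persisters and 11.3, 5.70 and 38.8 CPM in combination cells. DMSO replicate 1 was the highest of its group at all 7 regions, and the groups overlapped. The promoter sum differed from DMSO by 1.07 ± 0.74 in persisters and 1.73 ± 0.75 in combination cells (log2, SE), with adjusted p of 0.464 and 0.148 in edgeR. Without DMSO replicate 1 the second of these was 0.0495, and without combination replicate 2 it was 0.0420.

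The distal region of BMP4 at -42.0 kb (chr14:53998683-53999184), in intergenic DNA, was called in combination cells. It had counts of 19, 5 and 2 in DMSO cells, 38, 26 and 62 in persisters and 89, 126 and 8 in combination cells. Persisters lay above DMSO cells in every library, whereas combination replicate 3 lay within the DMSO range. The log2 fold change against DMSO was 3.34 ± 0.82 (SE), with an adjusted p of 0.0109 in edgeR, and rests on low DMSO counts. It was 6.04e-05 without combination replicate 3, and the call was lost without DMSO replicate 2 (0.0713) or DMSO replicate 3. In persisters the same region differed by 2.43 ± 0.80, with an adjusted p of 0.0595, which was 0.00286 without combination replicate 3. The region at -23.8 kb (chr14:53980394-53980895) had the highest distal mean of BMP4 and held 15.4 and 11.8 CPM in combination replicates 1 and 2 and 4.83 CPM in replicate 3, against 6.08, 1.24 and 0.805 CPM in DMSO cells. Its adjusted p against DMSO was 0.0625 in edgeR, and 0.00448 without combination replicate 3. The sum of both distal regions rose in combination cells by 2.43 ± 0.74 on the log2 scale, with an adjusted p of 0.0362, and this call was lost without DMSO replicate 2 (0.176), DMSO replicate 3, combination replicate 1 or combination replicate 2. It did not pass with plain library sizes (0.0966), a loess offset (0.0823) or the compared groups alone (0.0760).

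BMPR2 encodes the type II receptor that phosphorylates the type I receptors. None of its 3 regions, all in the promoter, was called. The highest, at 0.4 kb (chr2:202376488-202376989), had 22.6, 24.9 and 18.9 CPM in DMSO cells, 24.0, 69.7 and 23.2 CPM in persisters and 16.7, 20.4 and 66.5 CPM in combination cells. Persister replicate 2 and combination replicate 3 were again high and the other libraries of all groups lay between 16.7 and 24.9 CPM. The promoter sum differed from DMSO by 0.54 ± 0.49 in persisters and 0.42 ± 0.49 in combination cells (log2, SE), with adjusted p of 0.588 and 0.622 in edgeR.

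**Figure D2:**
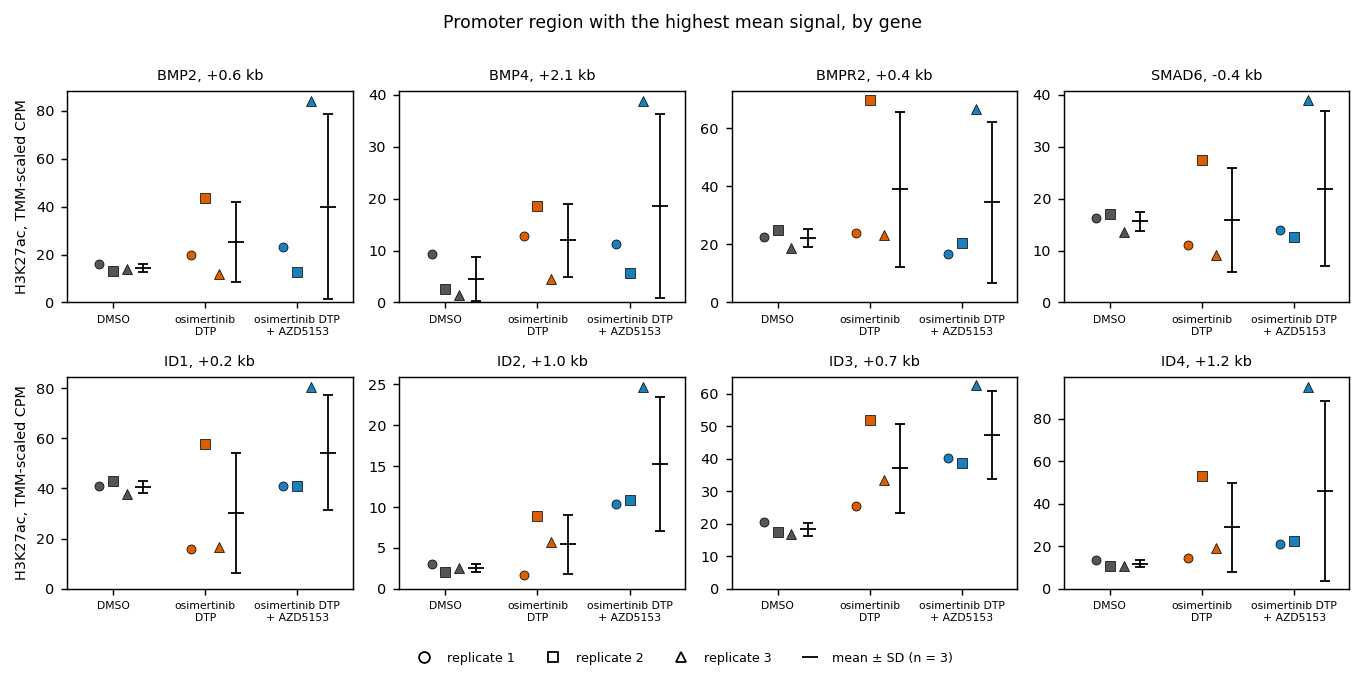
TMM-scaled CPM of H3K27ac (vertical axis, starting at 0) in the promoter region with the highest mean level of each gene, by condition, with circles, squares and triangles for replicates 1, 2 and 3 and bars for the mean ± SD (n = 3). Panel titles give the distance of the region centre from the gene start. Persister replicate 2 and combination replicate 3 are the highest libraries of their groups in all 8 panels.

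SMAD6 encodes an inhibitory SMAD that competes for activated receptors. Its promoter, which holds the GTCTAGAC sequence shown above, had 2 regions and neither was called. The stronger one, at -0.4 kb (chr15:66701539-66702040), had 16.3, 17 and 13.6 CPM in DMSO cells, 11.1, 27.4 and 9.06 CPM in persisters and 13.9, 12.7 and 39.0 CPM in combination cells. The groups overlapped, and the promoter sum differed from DMSO by 0.21 ± 0.60 in persisters and 0.82 ± 0.61 in combination cells (log2, SE), with adjusted p of 0.877 and 0.415 in edgeR. The distal region at -1.4 kb (chr15:66700572-66701073) had 4.72, 7.85 and 5.53 CPM in DMSO cells, 1.91, 2.78 and 1.01 CPM in persisters and 3.11, 2.21 and 2.51 CPM in combination cells. Here both treated groups lay below DMSO, with a log2 fold change of -1.67 ± 0.57 in persisters and an adjusted p of 0.0677 in edgeR, which was 0.0108 without combination replicate 3.

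The 12 distal regions of SMAD6 moved in both directions. A run of 3 intronic regions, at 47.8, 48.4 and 49.2 kb from the gene start (chr15:66749766-66750267, chr15:66750396-66750897 and chr15:66751226-66751727), fell in combination cells. The middle one had counts of 59, 85 and 43 in DMSO cells, 30, 21 and 17 in persisters and 9, 10 and 4 in combination cells, so the 3 groups did not overlap. Against DMSO its log2 fold change was -2.67 ± 0.60 (SE), with an adjusted p of 0.00702 in edgeR, beside -2.36 ± 0.60 (0.0123) for the first and -1.66 ± 0.52 (0.0344) for the third. Without combination replicate 3 these adjusted p were 0.00337, 0.00163 and 0.0091 from the first to the third. The first and the middle call were each lost without DMSO replicate 2 (0.0501 and 0.0557), and the third was lost in 7 of the 9 fits, those without any DMSO library, persister replicate 1 or 3, or combination replicate 1 or 2, at 0.122 or less, and with the compared groups alone (0.0847). In persisters all 3 lay below DMSO in every library, with log2 fold changes of -1.8, -1.30 and -1.34 that did not pass in edgeR (0.0502, 0.144 and 0.10). All 3 passed in persisters without combination replicate 3, at 0.00694, 0.0371 and 0.0184, and with the replicate block the first of them passed (0.0361).

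The intronic regions at 64.1, 77.8 and 78.3 kb had log2 fold changes of -0.54, -0.83 and -0.75 in persisters and 0.34, -0.37 and -0.42 in combination cells, and none was called. Other regions downstream were called higher. The one at 96.4 kb (chr15:66798427-66798928), intergenic and past the end of the gene, had counts of 11, 1 and 5 in DMSO cells, 40, 46 and 37 in persisters and 108, 104 and 33 in combination cells. Every treated library lay above every DMSO library, and the DMSO counts are so low that the size of the change is uncertain. It rose in persisters by 3.06 ± 0.69 and in combination cells by 4.14 ± 0.71 (log2, SE), with adjusted p of 0.0116 and 0.00188 in edgeR, and 0.000368 and 1.14e-05 without combination replicate 3. The first call was lost without DMSO replicate 2 (0.0852), DMSO replicate 3 or persister replicate 2, whereas the second passed in all 9 fits, at 0.0215 or less, and was the only member region to do so in either comparison. The intronic regions at 61.4 kb (chr15:66763433-66763934) and 73.6 kb (chr15:66775597-66776098) were called in combination cells and not in persisters, at 2.35 ± 0.65 (0.0194) and 1.85 ± 0.60 (0.0400). At the first the combination libraries had 5.31, 7.91 and 10.1 CPM, above 1.53, 4.73 and 1.71 CPM in persisters and 2.54, 1.14 and 0.805 CPM in DMSO cells, and no persister or DMSO library reached them. The first call was lost without DMSO replicate 2 or DMSO replicate 3 (0.120). The second was lost without DMSO replicate 2 (0.184), DMSO replicate 3, persister replicate 1 or 3, or combination replicate 1 or 2, and with plain library sizes (0.117) or the compared groups alone (0.0721). The strongest distal region of SMAD6, at 101.4 kb (chr15:66803362-66803863), had 16.5 ± 4.28 CPM in DMSO cells, 18 ± 6.93 in persisters and 34.7 ± 3.19 in combination cells (SD, n = 3 each). Combination libraries lay above all others there, yet the adjusted p against DMSO was 0.152 in edgeR.

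The distal sum of SMAD6, in which these opposite changes are pooled, differed from DMSO by -0.28 ± 0.39 in persisters and 0.54 ± 0.39 in combination cells (log2, SE), with adjusted p of 0.738 and 0.405 in edgeR. The regions at 96.4, 100.8 and 101.4 kb lie past the end of the gene (chr15:66782849 in RefSeq).

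**Figure D3:**
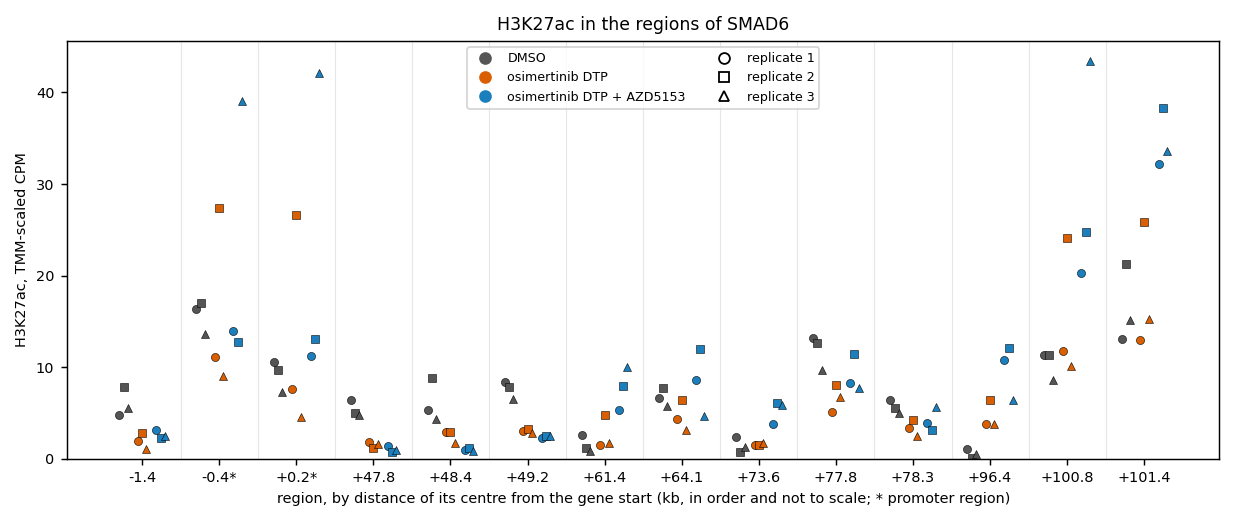
TMM-scaled CPM of H3K27ac (vertical axis) in each library at the 14 regions of SMAD6, in order along the gene and labelled with the distance of the centre from the gene start in kb (not to scale), with an asterisk for promoter regions. DMSO libraries (grey) are the highest at 47.8, 48.4 and 49.2 kb and the lowest at 96.4 kb.

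SMAD9, a receptor-activated SMAD, had no assigned region. The full table held 1 region within its bounds (chr13:36919259-36919760), with 5, 1 and 2 counts in DMSO cells, 2, 4 and 4 in persisters, 7, 9 and 18 in combination cells and 5 in the input. These counts were too low to pass the filter, so the region was not tested in the main fit and no difference is given.

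ID1 is the family member most often used as a readout of BMP signals. Of its 10 regions, 9 had a negative log2 fold change in persisters against DMSO, and all 10 had a positive one in combination cells against persisters, or 8 of 10 without combination replicate 3. The distal region at -2.5 kb (chr20:31602525-31603026) passed the test in persisters. It had 10.6, 14.9 and 12.4 CPM in DMSO cells, 1.82, 3.76 and 4.13 CPM in persisters and 8.32, 6.40 and 5.80 CPM in combination cells, so the 3 groups did not overlap and combination cells lay between the others. It fell in persisters by 1.96 on the log2 scale (SE 0.55), with an adjusted p of 0.0292 in edgeR and 0.00181 without combination replicate 3. The call was lost without any single DMSO library or any single persister library, at up to 0.154 without persister replicate 1. In combination cells it differed from persisters by 1.08 (unadjusted p = 0.0598) and from DMSO by -0.88 ± 0.53 (adjusted p = 0.269).

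Persister replicates 1 and 3 lay below every DMSO library in all 3 promoter regions of ID1, and replicate 2 did so in 1 of them. At -0.4 kb (chr20:31604611-31605112) DMSO cells had 29.1, 39.8 and 29.6 CPM, persisters 5.83, 27.4 and 11.1 CPM and combination cells 33.8, 42.5 and 31.5 CPM. All persister libraries lay below all others, and DMSO and combination cells overlapped. The log2 fold change was -1.15 ± 0.56 in persisters against DMSO (SE, adjusted p = 0.207 in edgeR) and 1.286 in combination cells against persisters (unadjusted p = 0.0360). At 0.2 kb (chr20:31605286-31605787), the highest promoter region, DMSO cells had 41.1, 42.9 and 37.9 CPM, persisters 15.8, 57.8 and 16.8 CPM and combination cells 41.0, 40.8 and 80.6 CPM. Persister replicates 1 and 3 were the lowest libraries there, whereas persister replicate 2 lay above every DMSO library. The ID1 promoter sum differed from DMSO by -0.75 ± 0.50 in persisters (adjusted p = 0.442 in edgeR). Without persister replicate 2 it was -1.59 with an adjusted p of 0.0401, and limma voom with quality weights also called it lower. In combination cells the promoter sum differed from DMSO by 0.38 ± 0.50 (adjusted p = 0.663).

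Of the distal regions of ID1, the highest, at -11.5 kb (chr20:31593533-31594034), had 24.1, 46.4 and 32.8 CPM in DMSO cells, 14.9, 53.2 and 20.1 CPM in persisters and 31.5, 37.2 and 55.5 CPM in combination cells, and the groups overlapped. At -8.3 kb (chr20:31596759-31597260) persisters lay below DMSO in every library, with an adjusted p of 0.139 in edgeR and 0.0226 without combination replicate 3. At -13.9 kb (chr20:31591132-31591633) combination cells were lower than DMSO, with a log2 fold change of -1.06 and an adjusted p of 0.337 in edgeR. Without combination replicate 3 these were -2.13 and 0.0114. Against persisters the log2 fold change there was 0.22, and -0.85 without combination replicate 3. The distal sum of ID1 differed from DMSO by -0.58 ± 0.42 in persisters (adjusted p = 0.484) and 0.03 ± 0.42 in combination cells (0.975).

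**Figure D4:**
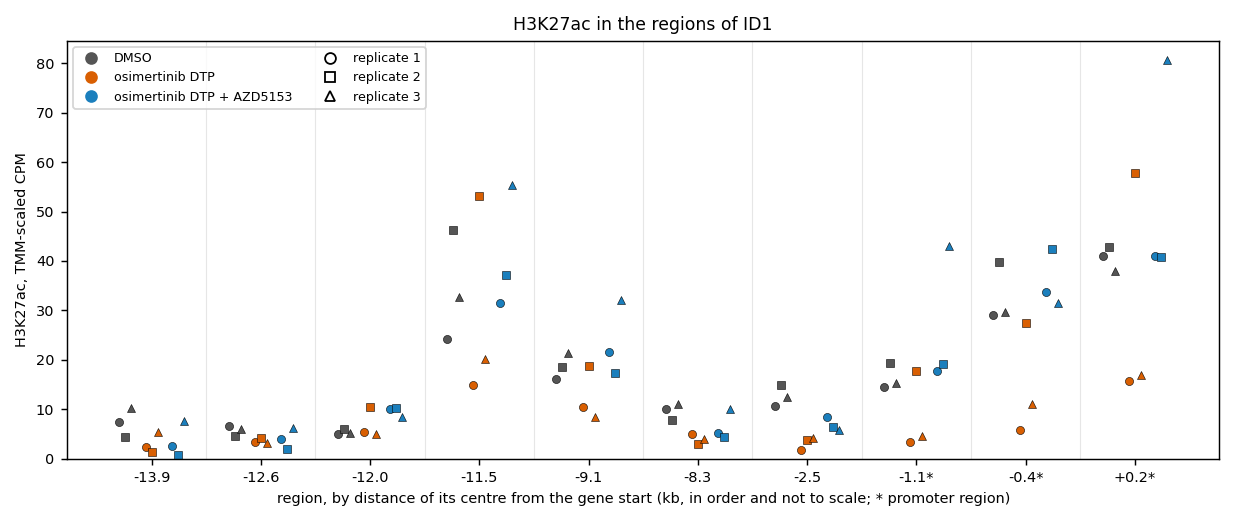
TMM-scaled CPM of H3K27ac (vertical axis) in each library at the 10 regions of ID1, in order along the chromosome and labelled with the distance of the centre from the gene start in kb (not to scale), with an asterisk for promoter regions. Persister replicates 1 and 3 (orange circles and triangles) lie below every DMSO library at -2.5, -1.1, -0.4 and 0.2 kb, and at -0.4 kb the combination libraries (blue) overlap the DMSO libraries.

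ID2 had 2 assigned regions, both called in combination cells, and neither overlapped its RefSeq promoter window. The nearest region upstream of the RefSeq start (chr2:8681127-8681628) was assigned to ID2-AS1. It was not called in combination cells against DMSO, at 1.05 (log2, adjusted p of 0.203 in edgeR). The promoter region at 1.0 kb (chr2:8682756-8683257) had 2.99, 2.07 and 2.51 CPM in DMSO cells, 1.63, 8.91 and 5.74 CPM in persisters and 10.3, 10.8 and 24.7 CPM in combination cells. Every combination library lay above all others, and persisters overlapped DMSO. It rose against DMSO by 2.58 ± 0.66 (log2, SE), with an adjusted p of 0.0129 in edgeR and 0.00502 without combination replicate 3. The distal region at 3.1 kb (chr2:8684921-8685422) had counts of 14, 4 and 6 in DMSO cells, 13, 24 and 8 in persisters and 27, 30 and 81 in combination cells. Combination libraries again lay above DMSO, by 3.20 ± 0.81 with an adjusted p of 0.0126, and 0.0239 without combination replicate 3. Both calls were lost without DMSO replicate 2 (0.0817 and 0.0786) or DMSO replicate 3. In persisters the log2 fold changes were 1.09 ± 0.64 and 1.18 ± 0.80, with adjusted p of 0.305 and 0.387. The promoter sum and the distal sum each hold 1 region, and were called with adjusted p of 0.0147 and 0.0122, and lost without the same libraries.

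ID3 had 5 regions. The distal region at 4.8 kb (chr1:23554441-23554942), downstream of the gene, was called in combination cells and was the highest of the distal ones. It had 14, 12.8 and 9.35 CPM in DMSO cells, 16, 68.2 and 12.7 CPM in persisters and 31.8, 32.6 and 80.6 CPM in combination cells. Combination libraries lay above DMSO, and among persisters replicate 2 stood far above replicates 1 and 3. The log2 fold change against DMSO was 2.00 ± 0.66 (SE), with an adjusted p of 0.0420 in edgeR. The call was lost without any DMSO library (0.177 without replicate 3), without combination replicate 1 or without combination replicate 3 (0.0501). The promoter region at 0.7 kb (chr1:23558574-23559075) had 20.6, 17.3 and 16.8 CPM in DMSO cells, 25.4, 52.0 and 33.6 CPM in persisters and 40.4, 38.7 and 62.8 CPM in combination cells. Both treated groups lay above DMSO in every library, but the log2 fold changes of 1.02 ± 0.49 and 1.37 ± 0.50 did not pass, with adjusted p of 0.200 and 0.0622 in edgeR.

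The other ID3 regions separated combination replicate 3 from its group. At 3.2 kb (chr1:23556099-23556600) the combination libraries had 44.5, 52.0 and 13.1 CPM, against 18.5, 22.9 and 18.7 CPM in DMSO cells, so replicates 1 and 2 lay above DMSO and replicate 3 below. At -2.7 and -3.5 kb replicate 3 was likewise the lowest combination library. The adjusted p against DMSO at these 3 regions were 0.289, 0.240 and 0.111 in edgeR, and 0.0227, 0.0249 and 0.00917 without combination replicate 3. The distal sum differed from DMSO by 1.30 ± 0.43 in combination cells, with an adjusted p of 0.0519 that was 0.0168 without combination replicate 3, and by 0.68 ± 0.42 in persisters (0.407).

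ID4 had 6 regions, of which 2 were called higher in persisters and 5 in combination cells. The region at -1.8 kb (chr6:19835360-19835861), upstream of the sequence shown above, had counts of 10, 11 and 2 in DMSO cells, 28, 71 and 137 in persisters and 42, 134 and 5 in combination cells. All persister libraries lay above DMSO, whereas combination replicate 3 lay within the DMSO range. The log2 fold change was 3.53 ± 0.91 in persisters and 3.20 ± 0.90 in combination cells (SE), with adjusted p of 0.0214 and 0.0219 in edgeR, and rests on low DMSO counts. Without combination replicate 3 these were 0.000389 and 0.000300. The persister call was lost without any DMSO library (0.115 without replicate 3) or persister replicate 2 or 3, and the combination call without any DMSO library, combination replicate 2 (0.119) or with the compared groups alone (0.0504).

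All 3 promoter regions of ID4 rose in combination cells. At -0.5 kb (chr6:19836611-19837112) DMSO cells had 4.35, 6.20 and 2.72 CPM, persisters 9.37, 26.2 and 16.2 CPM and combination cells 16.7, 22.8 and 22.0 CPM. Every treated library lay above every DMSO library, and both groups were called, at 1.96 ± 0.57 (adjusted p = 0.0361) in persisters and 2.21 ± 0.58 (0.0145) in combination cells, with 0.00337 and 0.00218 without combination replicate 3. Both calls were lost without any DMSO library (0.211 and 0.109 without replicate 3), and that of persisters also without persister replicate 2 or 3. At 0.2 kb (chr6:19837345-19837846) the libraries had 6.98, 5.89 and 5.33 CPM in DMSO cells, 7.27, 38.1 and 9.37 CPM in persisters and 15.5, 17.5 and 48.1 CPM in combination cells. Against DMSO combination cells rose by 2.15 ± 0.68 there (0.0372), a call lost without any DMSO library (0.151 without replicate 3).

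At 1.2 kb (chr6:19838285-19838786), the highest promoter region of ID4, the libraries had 13.6, 10.8 and 10.9 CPM in DMSO cells, 14.6, 52.9 and 19.1 CPM in persisters and 21.0, 22.2 and 94.9 CPM in combination cells. Each treated library lay above each DMSO library, with persister replicate 2 and combination replicate 3 far above the rest. The log2 fold change was 1.96 ± 0.66 in combination cells (adjusted p = 0.0482 in edgeR), lost without any DMSO library, persister replicate 1 or 3, or combination replicate 3, when it was 0.87 with an adjusted p of 0.179. It also missed with plain library sizes (0.0534) and a loess offset (0.0536). The promoter sum rose in combination cells by 2.07 ± 0.57, with an adjusted p of 0.0227, and was lost without any DMSO library (0.114 without replicate 3) or combination replicate 3 (0.0542). In persisters it differed by 1.53 ± 0.56, with an adjusted p of 0.109 that was 0.0234 without combination replicate 3.

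The distal ID4 regions at 14.3 and 54.8 kb lie past the end of the gene (chr6:19842197 in RefSeq). The one at 54.8 kb (chr6:19891920-19892421) is placed by the annotation in an exon, which is thus outside the RefSeq bounds of ID4. It had counts of 11, 8 and 15 in DMSO cells, 14, 46 and 43 in persisters and 29, 75 and 20 in combination cells. It rose in combination cells by 2.21 ± 0.68 (adjusted p = 0.0328), a call lost without any DMSO library, persister replicate 3 or combination replicate 2 (0.145), or with plain library sizes (0.0635). The region at 14.3 kb (chr6:19851407-19851908) had 5.27 ± 0.54 CPM in DMSO cells, 7.13 ± 2.89 in persisters and 11.8 ± 7.06 in combination cells (SD, n = 3 each), with replicates 1 and 2 of the combination at 15.3 and 16.4 CPM and replicate 3 at 3.67 CPM. Its adjusted p against DMSO was 0.191, and 0.00950 without combination replicate 3. The distal sum differed by 1.48 ± 0.61 in persisters and 1.75 ± 0.62 in combination cells, with adjusted p of 0.162 and 0.0714 that were 0.0417 and 0.00687 without combination replicate 3.

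**Figure D5:**
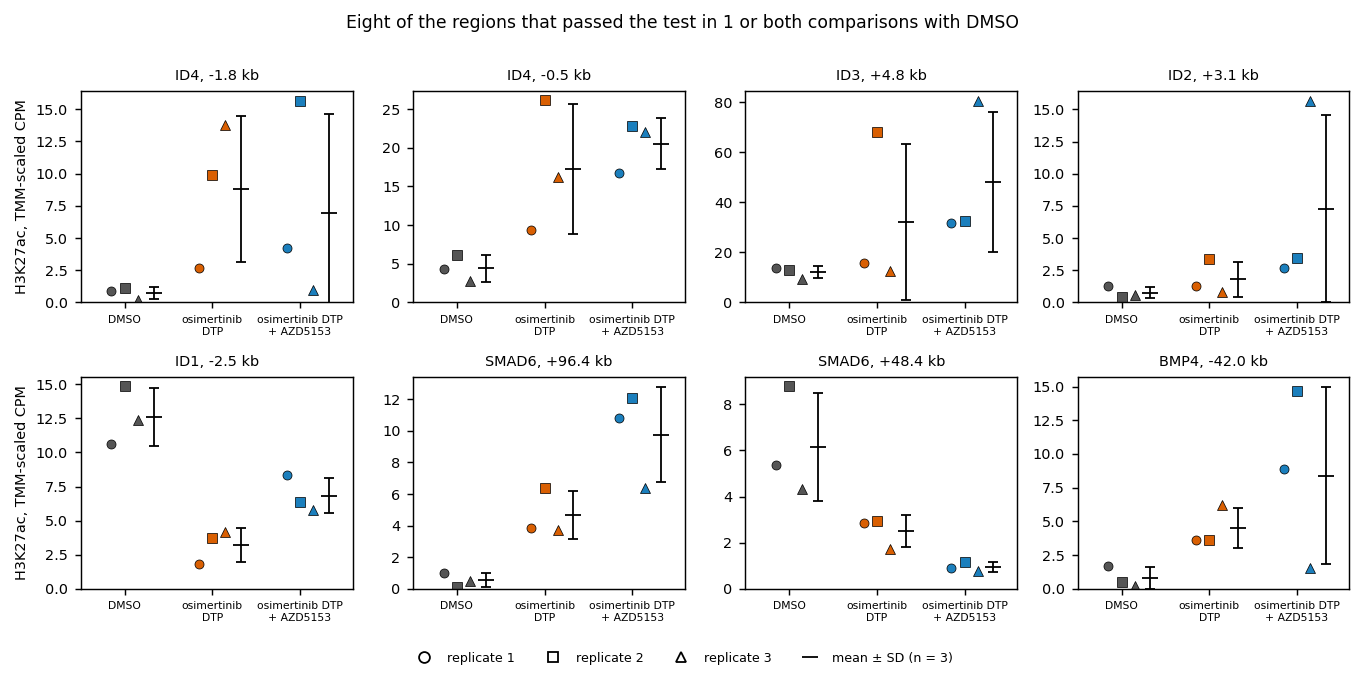
TMM-scaled CPM of H3K27ac (vertical axis, starting at 0) by condition in 8 regions that passed in persisters, in combination cells or in both against DMSO, with circles, squares and triangles for replicates 1, 2 and 3 and bars for the mean ± SD (n = 3). Combination replicate 3 lies near DMSO at ID4, -1.8 kb and BMP4, -42.0 kb and far above its group at ID2, 3.1 kb and ID3, 4.8 kb.

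Peaks called by the authors in each library were compared with the member regions. In DMSO replicates 1 to 3, 43, 40 and 35 of the 51 regions overlapped a peak. These were 84.31%, 78.43% and 68.63%, beside 84.97%, 82.67% and 81.18% of all annotated regions in the same libraries. Persisters had 36, 44 and 39, or 70.59%, 86.27% and 76.47%, beside 84.24%, 84.95% and 84.11%. Combination cells had 47, 46 and 44, or 92.16%, 90.2% and 86.27%, beside 83.21%, 81.75% and 64.05%. The members thus lay above the share of their own library in the combination libraries and persister replicate 2. They lay below it in the others. BMPR2, BMP2 beyond its weak upstream region, ID3 and the main ID1 promoter held peaks in 8 or 9 of the 9 libraries. The ID2 promoter region held one in 5 libraries and the called SMAD6 introns in 3 or 4.

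Other genes of the pathway were taken as a list of 51 ligands, receptors, SMADs, inhibitors, antagonists, targets and E proteins, of which 39 had regions, in 59 promoter or distal sums. In persisters 5 of the 59 sums were higher and 2 lower than in DMSO, where edgeR called 9.57% of all 21677 sums. In combination cells 9 were higher and 5 lower, where it called 14.5% of all sums. The median log2 fold changes were 0.62 and 0.53, beside 0.28 and 0.34 over all sums. Without combination replicate 3 the counts were 10 higher and 3 lower in persisters and 9 and 7 in combination cells. All sums then gave 2202 higher and 1904 lower, and 2594 and 2015. The medians were then 0.61 and 0.28, beside 0.28 and 0.06. Between combination cells and persisters none was called in edgeR or DESeq2, and 5 had an unadjusted p under 0.05 in edgeR. For that comparison limma voom with quality weights called 6 higher and 4 lower, and 18.4% of all sums. By role, the signal SMADs had 2 higher and 1 lower of 5 sums in each comparison with DMSO. The extracellular antagonists had 0 higher and 3 lower of 13 in combination cells. These counts are small and stand beside the shares of all sums given above.

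The 6 sums with the smallest adjusted p among these were all distal. GDF6, a ligand of the BMP family, had counts of 2, 4 and 2 in DMSO cells, 98, 101 and 150 in persisters and 147, 256 and 26 in combination cells, with adjusted p of 0.00166 and 0.000733 in edgeR. SMAD4, the shared partner of the signal SMADs, had 9, 10 and 4 in DMSO cells, 81, 75 and 187 in persisters and 152, 167 and 12 in combination cells (0.00518 and 0.00287). Both were higher in every treated library than in any DMSO library. MSX2, a homeobox gene and BMP target, rose by 2.59 ± 0.56 and 3.35 ± 0.57 (log2, SE, adjusted p of 0.00806 and 0.00126), the first lost without DMSO replicate 2 or 3 (0.0731). ATOH8, a helix-loop-helix target gene, rose in combination cells by 2.75 ± 0.50 (0.00188) and differed by 1.21 ± 0.48 in persisters (0.135). SMAD5 fell, with counts of 43, 101 and 60 in DMSO cells, 9, 1 and 2 in persisters and 3, 4 and 1 in combination cells (0.00303 and 0.00129), calls that did not pass with a loess offset. TWSG1, an extracellular modulator of BMP ligands, had log2 fold changes of -2.78 ± 0.58 and -3.55 ± 0.60 (SE), with adjusted p of 0.00676 and 0.0013, the first lost without DMSO replicate 2 (0.0575). All these calls also passed without combination replicate 3.

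Promoter sums of ID1, ID2 and ID3 were set against those of all 12294 genes with promoter regions, by Pearson correlation of log2(CPM + 1) over the 9 libraries, which share conditions and promoter share. The most alike to ID1 were AXL (0.96), ABCG2 (0.96) and TMC5 (0.95). To ID2 they were ID2-AS1 (0.96), its antisense neighbour, CPT1A (0.96) and RAPGEF1 (0.96), and to ID3 they were NEK6 (0.99), VSIR (0.99) and CCN2 (0.98). These values are a description over few libraries.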

How the data were processed

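H3K27ac ChIP-seq of H1975 cells was analysed from the processed files. The authors deposited raw read counts for 502 bp regions in all libraries and a second table of counts with gene annotation, whose counts were equal to the first. They also deposited 1 peak list per library, with fold enrichment as a ratio over background and −log10 p and q-values. Only peak positions were used here. The submitters' notes name BWA 0.7.17, MACS2 2.2.6, featureCounts 2.0.0, ChIPseeker 1.29.1 and build hg38. Their roles and settings, including duplicate removal, are not given in the sources used here. The highest count was 1148, and 75 nt reads have 1152 distinct starts over a region and both strands.

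Groups were taken from the titles. Counts of the 9 H3K27ac libraries and all 169637 regions were fitted together with edgeR 4.0.16 (R 4.3.3, limma 3.58.1): filterByExpr with a minimum count of 10, TMM factors, robust quasi-likelihood tests and Benjamini-Hochberg adjustment over the 157919 regions tested. SE is the log2 fold change over the root of F. Sums per gene and class used the same library sizes and factors. The fit was also run on simulated counts, with the same spread setting for every region and no outlying library. These data differ in that, so the run does not tell how the test performs on them. Total counts limit the precision of low regions.

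The members and gene lists were chosen with earlier results of these data known. Text names, per gene, the promoter and distal region of highest mean level, both sums and every called region, and at most 6 other pathway sums. The ID1 regions at -0.4, -8.3 and -13.9 kb, the SMAD6 region at -1.4 kb, the BMP2 region at -0.4 kb and the ID3 regions at 3.2, -2.7 and -3.5 kb were added after their values were seen, as was TATAAA. Persister and DMSO libraries of the same number deviated together from their group means (Pearson 0.334, 0.355 and 0.324), whereas not every pair of combination libraries with either group passed 0.1, so the replicate block is given for persisters. The labels do not say what a number marks. Results were recomputed with DESeq2 1.42.0, with plain library sizes in place of TMM, with a loess offset (span 0.3), with no filter, on annotated regions or the compared groups only, with the replicate block, with limma voom and quality weights, with counts corrected for that limit, and without each library.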

Additional observations from a re-analysis of the deposited data

How the results depend on the processing

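Acetylation is relative to each library, as the labels name no spike-in. In persisters against DMSO, 3 member regions were higher and 1 was lower. DESeq2 called 5 lower, the loess offset 3, annotated regions only 3, the compared groups alone 9 higher and 5 lower, the replicate block 2 lower and limma voom with quality weights 8 higher and 11 lower. Leaving out single libraries gave 0 to 8 higher and 0 to 6 lower. In combination cells against DMSO (12 higher, 3 lower), voom called 28 and 6, and leaving out libraries gave 1 to 16 and 0 to 4. Between combination cells and persisters voom called 7 regions and 9 sums, and every fit without 1 library called 0 regions. Of the sums, those called in persisters went from 0 to 2 with the compared groups alone, 6 with voom and 0 to 2 without single libraries. In combination cells against DMSO they went from 4 to 7 with DESeq2, 2 with the replicate block, 10 with voom and 0 to 6 without single libraries. Without DMSO replicate 2 the member regions called higher were 0 in persisters and 1 in combination cells.

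Of single regions and sums, none changed direction where called. Across alternatives, called values passed again 495 times and failed 102 times, and values not called passed 74 times, 34 of them under voom. The called values include the other pathway sums chosen for the smallest adjusted p in these data, so the passes do not describe the members alone. Among regions, the values not called cover only the promoter and distal region of highest mean level per gene, so not every possible gain was counted. Under the replicate block 7 of 34 calls were lost and 2 of 89 were gained. All 7 were in combination cells: ID3 4.8 kb, ID4 -1.8, 0.2 and 1.2 kb, and the BMP4 distal, ID2 distal and ID4 promoter sums. The causes were not tested. In combination cells against DMSO the median change over all regions (log2) went from 0.23 to -0.02 without TMM, and the calls from 14286 higher and 14232 lower to 9564 and 15152. With the loess offset they were 17258 and 11983. In persisters all regions gave 26568 higher and 23598 lower calls under voom, and 19930 and 18728 with the compared groups alone. In combination cells voom gave 37611 and 39221 of 157919. Low DMSO counts limit the precision at ID4 -1.8 kb, BMP4 -42.0 kb and SMAD6 96.4 kb.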

Other observations

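The deposited annotation gave 5 regions just upstream of ID2 to its antisense neighbour ID2-AS1. They were chosen after their values were seen. ID2 begins at chr2:8682056 in RefSeq GRCh38.p14. The highest of them in combination cells (chr2:8679085-8679586) had 165, 158 and 145 counts in DMSO cells, 90, 499 and 195 in persisters and 312, 355 and 583 in combination cells, with a log2 fold change of 2.01 in combination cells against DMSO and an adjusted p of 0.0513 in edgeR. The regions at chr2:8676735-8677236 and chr2:8677851-8678352 were called in that comparison, at 2.94 (0.0140) and 2.47 (0.0235). Those nearest the ID2 start, chr2:8680092-8680593 and chr2:8681127-8681628, were not called in it, at 1.33 (0.109) and 1.05 (0.203). All 5 had positive log2 fold changes in both comparisons with DMSO, from 0.11 to 1.71 in persisters and from 1.05 to 2.94 in combination cells. ID2 and ID2-AS1 cannot be told apart in these data, since H3K27ac carries no strand.

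Just downstream of ID1, 3 of 4 further regions were assigned to the microRNA gene MIR3193 and 1 to no gene. All 4 had negative log2 fold changes in persisters against DMSO (-0.18 to -0.80) and positive ones in combination cells against persisters (0.76 to 1.39), and none was called.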
